A study of Mus musculus with 5 samples.

Results

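Wnt5a, Wnt2, Rspo3, Lef1, Tcf7, Axin2 and Sfrp1, 7 of the 24411 genes in the count table, were followed in single cells from the blood of mouse embryos. They were chosen by name as ligands, a ligand enhancer, a secreted antagonist and transcriptional readouts of Wnt signalling. The choice was made with earlier results of these data known. Each gene was read as CPM, its UMI count scaled to a common total per cell, a UMI being a tag that marks 1 captured RNA molecule. Of 369 wells with UMIs, 294 cells had at least 1000 genes and 30000 UMIs and were kept. All cells came from wild-type C57BL/6 embryos. Blood was drawn from the heart, cells without TER119, CD41, CD43 and CD45 on their surface were sorted as circulating cells outside the blood lineage, and single cells were picked by hand. E9.5 (embryonic day 9.5) had 2 batches and E10 had 3, called replicates here. The labels do not say whether batches were separate litters, so p-values measure the spread between these batches, which may be technical.

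Wnt proteins are secreted ligands that bind Frizzled receptors. In the canonical branch this keeps beta-catenin (Ctnnb1) from being destroyed, and beta-catenin then acts with TCF/LEF DNA-binding factors, among them Lef1 and Tcf7. Axin2 is a target gene of that branch and acts as a negative feedback on it, and Lef1 is itself often a target. Wnt2 is mostly described as a canonical ligand. Wnt5a is mostly described as acting through Ror receptors without beta-catenin, and is needed for outgrowth of limb and facial mesenchyme. Rspo3, an R-spondin, strengthens Wnt signals by keeping Frizzled receptors on the cell surface, and Sfrp1 is a secreted Frizzled-like protein that can bind Wnt ligands.

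Promoter sequences are shown for Lef1 and Axin2, since these genes were the readouts set against the ligands. RefSeq promoters of 300 bases (250 before to 50 after a start site, build GRCm38.p6) were found for 4 of the 7 genes, 8 promoters in all. They were searched on both strands for CTTTGAT, then for CTTTGAA, then for CTTTGTT and last for CTTTGTA, which are forms of the motif bound by TCF/LEF factors and share their first 5 letters. A match is in capitals, and 16.9% of all 32851 promoters in the table held at least 1. The 2 Lef1 promoters and the Axin2 promoter below lie on the plus strand at chr3:131110047-131110346, chr3:131156044-131156343 and chr11:108920099-108920398.
Lef1, first start: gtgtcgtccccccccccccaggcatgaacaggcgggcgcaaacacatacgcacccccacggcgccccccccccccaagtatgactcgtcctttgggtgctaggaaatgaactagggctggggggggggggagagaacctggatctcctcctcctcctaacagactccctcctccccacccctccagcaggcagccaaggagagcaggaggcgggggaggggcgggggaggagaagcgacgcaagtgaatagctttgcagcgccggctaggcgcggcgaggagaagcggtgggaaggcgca
Lef1, internal start: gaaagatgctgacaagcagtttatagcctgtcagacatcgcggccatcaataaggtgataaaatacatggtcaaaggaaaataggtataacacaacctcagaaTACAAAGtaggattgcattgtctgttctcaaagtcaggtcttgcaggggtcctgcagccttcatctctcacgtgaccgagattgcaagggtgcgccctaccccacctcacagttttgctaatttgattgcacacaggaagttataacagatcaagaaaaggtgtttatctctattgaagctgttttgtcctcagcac
Axin2: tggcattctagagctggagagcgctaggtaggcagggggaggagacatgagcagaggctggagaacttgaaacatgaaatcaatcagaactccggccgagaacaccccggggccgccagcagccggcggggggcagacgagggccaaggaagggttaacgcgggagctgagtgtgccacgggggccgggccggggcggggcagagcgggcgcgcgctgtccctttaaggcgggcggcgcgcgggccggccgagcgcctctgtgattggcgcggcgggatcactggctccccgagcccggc
The internal Lef1 start held TACAAAG, the reverse complement of CTTTGTA, beginning 147 bases before the start site. None of the other 7 promoters of these genes held a match, which says only that these letters were not in those windows.

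Kept cells held 31294 to 1407021 UMIs, with a median of 308924, and batches held 26, 46, 87, 72 and 63 cells in the order E9.5 replicates 1 and 2 and E10 replicates 1, 2 and 3. Batch values are given in that order throughout. A cell was classed as blood with at least 3 of 13 blood markers at 50 CPM or more, as neural with at least 3 of 16 neural markers, then as a Prrx1 cell with Prrx1, a mesenchymal transcription factor, at 100 CPM or more, and otherwise as other. This gave 89 blood, 59 neural, 104 Prrx1 and 37 other cells, and 5 cells that passed both marker gates were left unclassed. Since the marker gates came first, 12 of the blood and 12 of the neural cells also had Prrx1 at 100 CPM or more. Their part in the blood and neural values below was not tested. The blood class goes against the label of the sort, although Ptprc, which encodes CD45, had 0 UMIs in every batch. Of 10 mesenchymal markers, among them Prrx1, the gate itself, 9 had a median of 20 CPM or more in Prrx1 cells. In other, neural and blood cells 4, 3 and 1 did. Of 8 endothelial markers none did in any class, but medians hide single cells. The highest sum in an other cell was 3891 CPM for the endothelial markers and 11408 CPM for 6 cardiac muscle markers. No well held the same counts as another, although 90 well numbers held a kept cell in at least 2 batches.

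E10 replicate 2 stood apart. Haemoglobin genes took at least 2.62% of the UMIs of each of its cells, with a median of 6.31%, against batch medians of 0.0337% to 1.73% elsewhere. Of its 72 cells, 58 were classed as blood at 50 CPM and 32 when the markers had to reach 100 CPM, and 10 and 17 of the cells that left the class became Prrx1 and other cells. In the other batches together 1 cell left the blood class. The stricter gate also changed the neural class: in E10 replicate 1 it fell from 27 to 18 cells, and Prrx1 cells rose from 43 to 50. Tests between classes are therefore given at 50 CPM, the main gate, and then at 100 CPM, which gave 62 blood, 51 neural, 122 Prrx1 and 58 other cells. The emphasis on the stricter gate was decided after E10 replicate 2 had been seen.

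Of the ligands, Wnt5a was found mostly in Prrx1 cells. Summed over the Prrx1 cells of each batch, its level was 95.9, 34.2, 235, 14 and 146 CPM. In neural cells it was 6.54 and 1.37 CPM at E9.5 and 125 and 7.23 CPM in E10 replicates 1 and 3, and in blood cells 6.38 CPM in E9.5 replicate 2 and 8.71 and 2.44 CPM in E10 replicates 2 and 3. The Prrx1 sum was above the neural and the blood sum of its own batch in every batch that had both. In other cells Wnt5a stood at 4.16 to 81.9 CPM, the highest in E9.5 replicate 2, where Prrx1 cells stood at 34.2 CPM. A class entered a batch's sums only with at least 3 cells. The Prrx1 sums held 15, 20, 43, 5 and 21 cells, so that of E10 replicate 2 rests on few cells for every gene.

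Cell by cell, 50 of 104 Prrx1 cells held Wnt5a at 100 CPM or more, which is 3 UMIs in the shallowest cell allowed, against 7 of 37 other cells, 11 of 59 neural cells and 1 of 89 blood cells. A UMI of any number was no guide: Wnt5a had one in 69.7% of blood cells, at a median of 347011 UMIs a cell, and in 81.7% of Prrx1 cells, at 275522. Cells at 100 CPM or more are called positive below for that reason.

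Wnt2 marked few cells. Its level over Prrx1 cells was 12.6, 53.2, 13.5, 0 and 29.0 CPM, and 12 cells of all 294 were positive, 9 of them Prrx1 cells, 2 other cells and 1 neural. In other cells its level was 0, 79.6, 3.02, 0 and 13.7 CPM, above Prrx1 cells in E9.5 replicate 2, where that sum held 4 cells. In blood cells its level was 0.834 to 3.64 CPM, and 0 of 89 cells were positive. E9.5 replicate 2 held 6 of the 12 positive cells. Wnt2 and Wnt5a met in 1 cell, and Wnt2 and Rspo3 in 0, but 12 of 12 Wnt2 cells were also positive for Sfrp1 and 7 each for Lef1 and Axin2.

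Rspo3 was positive in 21 cells, 18 of them Prrx1 cells and 3 neural cells. Its Prrx1 level was 42.5, 12.3, 70.0, 2.10 and 37.4 CPM, its neural level 0 in both E9.5 batches and 28.0 and 1.94 CPM at E10, and its blood level 0, 3.65 and 0.129 CPM. Its level in other cells was 31.0, 2.34, 1.86, 11.1 and 13.7 CPM, above Prrx1 cells in E10 replicate 2. Of its 21 positive cells 15 also held Wnt5a, which was 21.7% of the 69 Wnt5a cells, and 17 held Sfrp1. All 11 Rspo3 cells of E10 replicate 1 in the Prrx1 and other classes were Wnt5a cells, whereas none of the 3 in E9.5 replicate 1 were.

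The antagonist Sfrp1 was positive in 102 cells, 72 of the 104 Prrx1 cells among them. Over Prrx1 cells it stood at 193, 243, 359, 9.82 and 263 CPM, so E10 replicate 2 fell far below the other batches. That sum held only 5 cells with 14 Sfrp1 UMIs, and at the 100 CPM gate it held 15 cells at 24.3 CPM. In other cells Sfrp1 stood at 61.1, 347, 111, 35.3 and 38.1 CPM, above Prrx1 cells in E9.5 replicate 2 and E10 replicate 2. Its neural level was 116, 4.80, 149 and 37.0 CPM, and its blood level 10, 20.7 and 4.75 CPM. Sfrp1 and Wnt5a met in 52 cells, 75.4% of the Wnt5a cells and 51.0% of the Sfrp1 cells.

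Among the readouts, Lef1 was positive in 75 cells, 41 of them Prrx1 cells, 16 blood, 9 neural and 9 other. Over Prrx1 cells it stood at 90.7, 181, 103, 98.9 and 81.6 CPM, over other cells at 40.4 to 90.1 CPM, and over neural cells at 30.5, 90.6, 69.8 and 33.7 CPM. Its blood level was 2.96 CPM in E9.5 replicate 2, 56.5 CPM in E10 replicate 2 and 1.67 CPM in E10 replicate 3. The blood and Prrx1 ranges did not overlap, but the blood cells of E10 replicate 2 stood well above those of the other 2 batches. At the 100 CPM gate that batch's blood level was 14.8 CPM, and positive blood cells numbered 2 of 62 in place of 16 of 89.

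Axin2 was positive in 39 cells, 26 of them Prrx1 cells, 6 neural, 4 blood and 3 other. Its Prrx1 level was 22.4, 111, 55.2, 28.1 and 92.9 CPM, its neural level 7.63, 2.74, 38.1 and 28.2 CPM, and its blood level 5.01, 22.2 and 0.771 CPM. Its level in other cells was 8.17, 46.8, 16.2, 15.2 and 26.9 CPM. Lef1 and Axin2 met in 21 cells, 53.8% of the Axin2 cells and 28.0% of the Lef1 cells. Tcf7, another factor of the family, reached 100 CPM in 2 cells, and stayed at or below 17.0 CPM in every class sum.

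**Figure D1:**
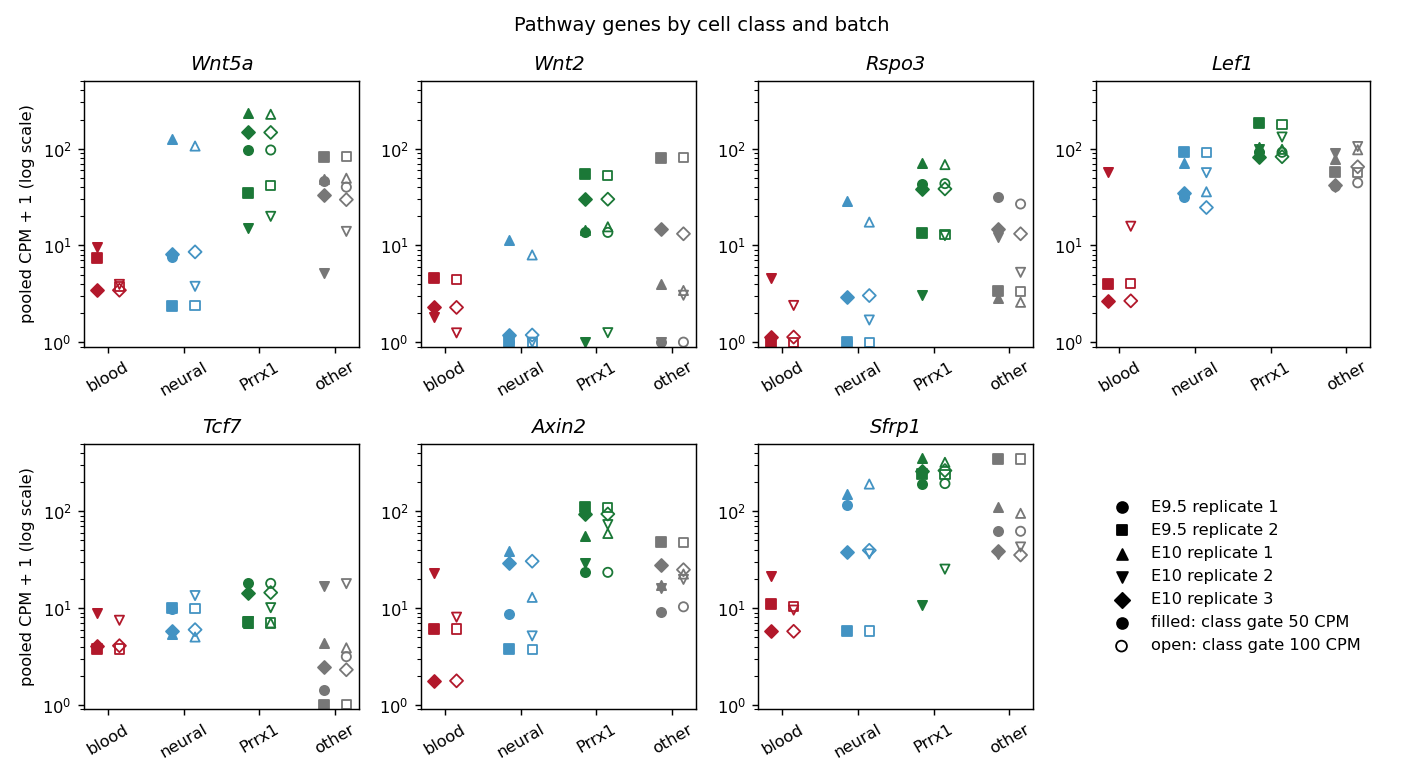
Level of each gene (CPM + 1, log axis) summed over the cells of a class in each batch, 1 point per batch, with filled points for the 50 CPM class gate and open points for the 100 CPM gate. At 50 CPM, Wnt5a in Prrx1 cells ran from 14 to 235 CPM and Lef1 in Prrx1 cells from 81.6 to 181 CPM, and Lef1 in the blood cells of E10 replicate 2 moved from 56.5 to 14.8 CPM between the gates.

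Averaged over the batches that had the class, 6 of the 7 genes had the order Prrx1, other, neural, blood. Mean Lef1 levels were 111 CPM ± 40.1 (SD, n = 5), 61.0 ± 22.1 (n = 5), 56.1 ± 29.1 (n = 4) and 20.4 ± 31.3 (n = 3). Mean Wnt5a levels were 105 CPM ± 89.2, 42.4 ± 28.2, 35.1 ± 60.1 and 5.84 ± 3.17 in the same order. Tcf7 was the exception, with other cells lowest at 4.24 CPM ± 6.67. The classes were averaged over different batches, and edgeR fits that compared classes within batches did not keep this order for every gene. At 50 CPM they put blood above neural cells for Wnt5a (log2 fold change 0.56, SE 1.08) and Wnt2 (1.88, SE 2.32). They put neural above other cells for Lef1 (0.078, SE 0.50), and none of these values passed the threshold. Between neighbours in that order, a difference past the threshold was found for Lef1 between neural and blood cells and for no other of the 7 genes at the 50 CPM gate. Between neural and other cells 1.02% of genes were called, 129 of 12648, with 1638 at an unadjusted p under 0.05 and 479 in DESeq2, and 0 of the 7. At 100 CPM 2.42% were called, 314 of 12958, and 0 of the 7, with 2020 genes at an unadjusted p under 0.05 in edgeR.

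Prrx1 cells did not differ from other cells in any of the 7 genes past an adjusted p of 0.05 (edgeR quasi-likelihood test on sums per batch, batch as a block, Benjamini-Hochberg over 12648 genes). In that comparison 0.00791% of genes were called, which is 1 gene, Prrx1, the gate itself. All 7 log2 fold changes were above 0, from 0.94 for Sfrp1 to 1.81 for Tcf7, against a median of 0.06 over all genes. Without adjustment, p was under 0.05 for Axin2, with a log2 fold change of 1.5 (SE 0.69), and for Lef1, with 0.98 (SE 0.47), both with an adjusted p of 0.887 in edgeR. DESeq2 called 36 genes and none of the 7. At the 100 CPM gate 0.00772% of genes were called, 1 of 12958, with 686 at an unadjusted p under 0.05 in edgeR, and again 0 of the 7.

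Neural cells held less Wnt5a than Prrx1 cells in 4 of 4 batches, but the call depended on the gate. At 50 CPM, 0.933% of genes were called in that comparison and 0 of the 7, 4 of them with an unadjusted p under 0.05. The log2 fold change of Wnt5a was -2.82 (SE 0.83, adjusted p = 0.115 in edgeR), and those of Rspo3 and Axin2 were -3.21 (SE 1.32, adjusted p = 0.331) and -1.58 (SE 0.78, adjusted p = 0.469). Wnt5a passed in edgeR when E10 replicate 1 (adjusted p = 0.0367) or E10 replicate 2 (0.0313) was left out. Over all genes 125 and 208 were called there, against 118 with every batch. Over all alternatives the adjusted p of Wnt5a ran from 0.000859 to 0.642. DESeq2 called Wnt5a and Wnt2, among 474 genes in all.

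At the 100 CPM gate 3.93% of genes were called between neural and Prrx1 cells, 1.46% as lower in neural cells, and 3 of the 7 genes passed in edgeR. Axin2 was lower in neural cells by a log2 fold change of -2.70 (SE 0.65, adjusted p = 0.0190), Wnt5a by -2.75 (SE 0.69, adjusted p = 0.0244) and Lef1 by -1.40 (SE 0.40, adjusted p = 0.0497), each in 4 of 4 batches. These were not the same batches as at 50 CPM. E9.5 replicate 1, with 2 neural cells, dropped out, and E10 replicate 2 came in with 4. Lef1 over the neural cells of E10 replicate 1 was 34.8 CPM at this gate and 69.8 CPM at 50 CPM. Of the 72 tested genes of the 94 in 8 Wnt lists, 10 passed, all lower in neural cells, with a median over the 72 of -0.93 against -0.01 over all genes. They included Sfrp2, a relative of Sfrp1, Dkk2, a secreted antagonist, Rspo1 and Rspo4, and the receptor Fzd2 (73.3 CPM ± 34.7 in neural cells, n = 4, against 216 ± 99.3 in Prrx1 cells, n = 5). At 50 CPM 0 of 66 list genes passed. The lists, like the 7 genes, were chosen with earlier results of these data known, so shares and medians over them are only descriptions.

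Lef1 was lower in blood cells than in Prrx1 cells. At 50 CPM, 11.1% of genes were called, 4.75% as lower in blood, and of the 7 genes Lef1 passed, with a log2 fold change of -3.29 (SE 0.70, adjusted p = 0.00398 in edgeR), lower in blood in 3 of 3 batches. The call was lost without E9.5 replicate 2 (-2.33, adjusted p = 0.0900) and without E10 replicate 3 (-2.65, adjusted p = 0.0818), and without the batch block (-2.13, adjusted p = 0.0759). Over all alternatives its adjusted p ran from 5.65e-07 to 0.0900. Lef1 was also lower in blood than in other cells (-2.31, SE 0.67, adjusted p = 0.0345 in edgeR), where 8.27% of genes were called and 3.23% as lower, and than in neural cells (-2.39, SE 0.73, adjusted p = 0.0335), where 12.8% were called and 5.72% as lower. Each of these 2 calls was likewise lost when E9.5 replicate 2 or E10 replicate 3 was left out. The call against other cells was also lost without E10 replicate 1 (-2.33, adjusted p = 0.0512), and both were lost without the block. At the 100 CPM gate Lef1 was at -3.40 against other cells (SE 0.50, adjusted p = 5.93e-05), where 18.4% of genes were called and 9.04% as lower, and at -2.62 against neural cells (SE 0.49, adjusted p = 0.000445), where 25.0% were called and 12.8% as lower. Against other cells Sfrp1 (-2.67, SE 0.79, adjusted p = 0.0198), Wnt5a (-2.50, SE 0.75, adjusted p = 0.0223) and Axin2 (-2.11, SE 0.74, adjusted p = 0.0493) also passed in edgeR at that gate, and against neural cells Lef1 alone of the 7 did.

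The other 6 genes did not pass against Prrx1 cells at 50 CPM. Axin2 had a log2 fold change of -2.81 (SE 1.01) and Wnt5a -2.26 (SE 0.95), and their levels were lower in blood in 3 of 3 batches. Sfrp1 had -2.90 (SE 1.04) and Rspo3 -4.06 (SE 1.66), but in E10 replicate 2 Sfrp1 was 20.7 CPM in blood against 9.82 in Prrx1 cells and Rspo3 3.65 against 2.10, so each was lower in 2 of 3 batches. The Prrx1 sum of that batch held 5 cells, with 14 Sfrp1 and 3 Rspo3 UMIs. The adjusted p of these 4 genes ran from 0.0763 to 0.135 in edgeR. Wnt2 (-2.11, adjusted p = 0.542) and Tcf7 (-1.03, adjusted p = 0.655) were also higher in the blood cells of that batch. Axin2, Wnt5a, Sfrp1, Rspo3 and Lef1 had an unadjusted p under 0.05, as had 3105 of all 12648 genes in edgeR. DESeq2 called the same 5, among 2363 genes in all, where edgeR called 1405. Without E10 replicate 2, the batch with the haemoglobin, all 5 passed in edgeR, where the calls over all genes rose to 2151. At the 100 CPM gate, where 21.9% of genes were called, 11.0% as lower, the same 5 passed, with Lef1 at -4.02 (SE 0.51, adjusted p = 8.31e-06), Axin2 at -3.67 (SE 0.77), Sfrp1 at -3.67 (SE 0.83), Rspo3 at -4.44 (SE 1.23) and Wnt5a at -3.50 (SE 0.78), each lower in 3 of 3 batches. A share of 5 of 7 stood beside a background of 11.0%. The 7 genes and the gates were chosen with earlier results of these data known, so these shares cannot show enrichment.

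In the 8 Wnt lists, 10 of 66 tested genes passed as lower in blood than in Prrx1 cells, Lef1 among them, 1 as higher, and 55 did not pass at 50 CPM, where 4.75% of all genes were called lower. The 66 had a median log2 fold change of -1.77 against -0.03 over all genes. As above, shares and medians over these lists are only descriptions. By role, the receptors Fzd2, Fzd3 and Ptk7 were lower and Fzd5 was higher, 13.8 CPM ± 8.39 in blood (n = 3) against 1.68 ± 1.96 in Prrx1 cells (n = 5). Beta-catenin, Ctnnb1, stood at 109 CPM ± 79.8 against 398 ± 147, and its inhibitor Ctnnbip1 was also lower. Tcf7l1, mostly a repressor of the TCF family, and the target genes Ccnd1, a cyclin, and Nkd1, a feedback inhibitor, were lower, as was the antagonist Sfrp2, 7.33 CPM ± 7.45 against 95.2 ± 55.0. At 100 CPM, 29 of 72 passed as lower, where 11.0% of all genes did, and 3 as higher, the last being Fzd5, Btrc and Myc. Myc was higher in 2 of 3 batches.

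**Figure D2:**
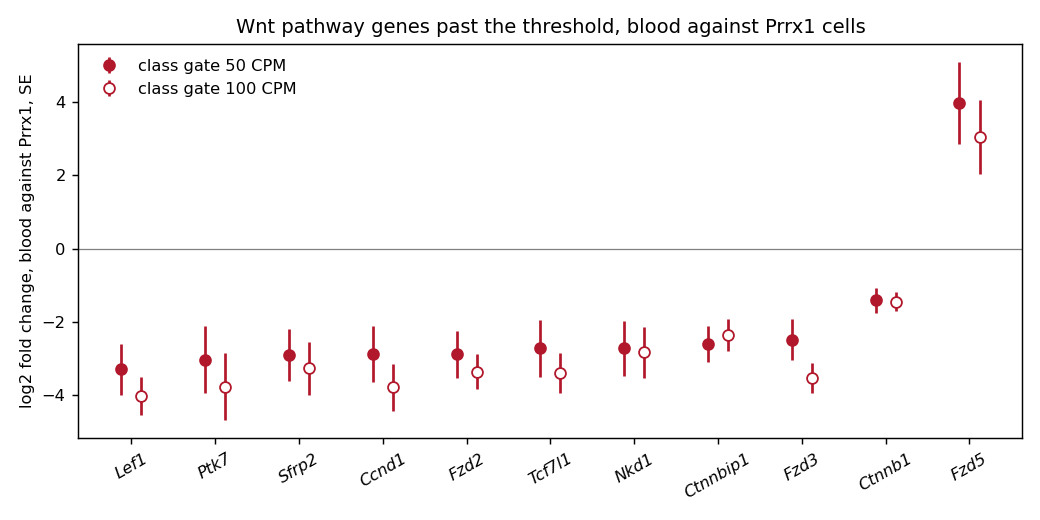
Log2 fold change in blood against Prrx1 cells, with its standard error, of the 11 Wnt list genes that passed at the 50 CPM gate (filled), with their values at the 100 CPM gate (open). Lef1 was at -3.29 and -4.02, and Fzd5 was the 1 gene above 0.

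Positive cells for at least 1 of Wnt5a, Wnt2 and Rspo3, called senders, numbered 86 of 294, and 16 held more than 1 of these transcripts. By batch they were 9, 11, 48, 0 and 18 cells, and by class 65 of 104 Prrx1 cells, 12 of 59 neural cells, 8 of 37 other cells and 1 of 89 blood cells. Lef1 or Axin2 was positive in 93 cells, of which 40 were senders and 53 were not. In Prrx1 cells, 31 of 65 senders and 22 of 39 non-senders held a readout, and 17 of the 104 held neither a ligand nor a readout. A positive cell holds transcript. Secretion and receipt of a ligand were not measured.

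E10 replicate 2 had readouts without senders. Of its 72 cells 0 were senders, which allows a share of up to 4.17% for each ligand (3 counts of the total), yet 19 were positive for Lef1 and 3 of these for Axin2 as well. Of the 19, 16 were in the blood class at the 50 CPM gate, 2 in the Prrx1 class and 1 in other. Lef1 was positive in 26.4% of the cells of that batch (exact 95% interval 16.7% to 38.1%) and in 19.0% to 30.4% of those of the other batches. The haemoglobin share of this batch is given above, and its part in these numbers was not tested.

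**Figure D3:**
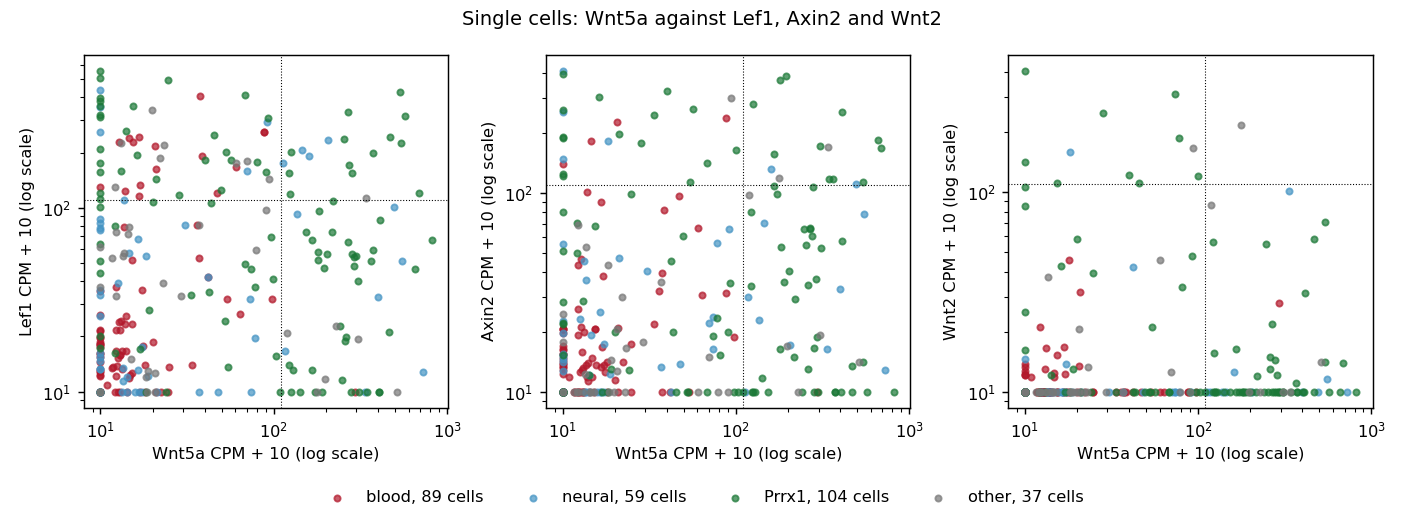
Single cells by Wnt5a (x axes) and by Lef1, Axin2 or Wnt2 (y axes), as CPM + 10 on log axes, coloured by class at the 50 CPM gate, with dotted lines at 100 CPM. Lef1 cells were found with and without Wnt5a (18 of 75 with it), and Wnt5a and Wnt2 met in 1 cell.

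Within Prrx1 and other cells, Wnt5a senders were compared with the cells below 100 CPM, batch by batch, over the 57 and 76 cells of the 4 batches that had both. Lef1 was positive in 40%, 25.0%, 22.2% and 25.0% of senders and in 23.5%, 60.0%, 43.5% and 43.8% of the rest, so senders were lower in 3 of 4 batches. The mean difference was -14.6 percentage points (SD 21.9, n = 4, two-sided exact sign-flip permutation p = 0.25, adjusted p = 0.5 over the 4 pairs tested). For Axin2 senders were higher in 3 of 4 batches, by 6.93 points on average (SD 9.22, exact permutation p = 0.25, adjusted p = 0.5). The Lef1 difference was -25.0 points without E9.5 replicate 1 and -7.85 without E9.5 replicate 2, and the Axin2 difference 11.3 points without E10 replicate 3 and 4.24 without E9.5 replicate 2. The smallest p this design allows is 0.125, and neither difference was larger than the spread between batches.

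In levels, Lef1 in Wnt5a senders was 124, 75.0, 71.5 and 57.6 CPM and in the rest 65.5, 177, 133 and 75.2 CPM, a log2 fold change of -0.47 (SE 0.39). Axin2 was 28.5, 126, 45.7 and 109 CPM in senders and 15.7, 95.3, 41.8 and 54.1 CPM in the rest, higher in 4 of 4 batches, with a log2 fold change of 0.53 (SE 0.41). Sfrp1 was higher in 4 of 4 batches too (0.79, SE 0.28, unadjusted p = 0.0110 in edgeR). Lef1, Axin2 and Sfrp1 each had an adjusted p of 0.998 in edgeR, where 0.0192% of 10415 genes were called.

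Those called genes were Wnt5a, the gate, and Atf3, a transcription factor induced by stress, which lies outside the naming rule and is given because it was the only other call. Atf3 stood at 1021, 363, 159 and 152 CPM in senders and 392, 122, 61.5 and 30.3 CPM in the rest (log2 fold change 1.59, SE 0.24, adjusted p = 0.0199 in edgeR). Leaving out E9.5 replicate 2 or E10 replicate 3 left 1 call. DESeq2 called 14 genes. Mesenchymal markers moved with the split: their summed level had a median of 3162 CPM (359 to 6293) in senders and 1292 CPM (52.2 to 5369) in the other 84 Prrx1 and other cells, with 9 of 10 markers at a median of 20 CPM or more on either side, and their part in these values was not tested.

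Rspo3 senders were set against other cells in the same way over 3 batches, with 3, 11 and 3 senders. Lef1 was 72.7, 127 and 105 CPM in senders and 71.8, 88.6 and 65.9 CPM in the rest (log2 fold change 0.36, SE 0.55), and Axin2 was 72.7, 36.7 and 1.75 CPM against 10.1, 45.9 and 79.4 CPM (-0.46, SE 1.16), both with an adjusted p of 0.996 in edgeR. Axin2 was higher in senders at E9.5 and lower in both E10 batches. Shares of positive cells differed by 3.85 points for Lef1 (SD 5.64, n = 3, exact permutation p = 0.5) and by -5.59 points for Axin2 (SD 27.5, exact permutation p = 0.75), and the smallest p possible was 0.25.

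In that split 0.181% of 11034 genes were called, 19 as higher and 1 as lower, against a median log2 fold change of -0.38 over all genes. From the Wnt lists Rspo3, the gate, and Sfrp2 passed. Sfrp2 stood at 227, 161 and 599 CPM in Rspo3 senders and 122, 79.4 and 59.8 CPM in the rest, higher in 3 of 3 batches (log2 fold change 1.66, SE 0.40, adjusted p = 0.0228 in edgeR). The fit of this split used a spread shared across genes. Its p-values therefore hardly reflect a gene's own spread between these 3 batches. Without the batch block 1 gene was called in all. All 18 Rspo3 senders in these classes were Prrx1 cells. Their mesenchymal marker sum had a median of 3616 CPM (1561 to 6293) against 1560 CPM (52.2 to 5365) in the other cells, 9 of 10 markers reached a median of 20 CPM on either side, the markers Col1a2 and Col3a1 were among the called genes, and the part of these markers was not tested.

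Wnt2 had 3 or more positive cells in E9.5 replicate 2 and E10 replicate 3 only, so it was not tested. Axin2 in Wnt2 senders was 129 and 189 CPM in these batches, against 91.7 and 56.0 CPM in the rest, and Sfrp1 was 450 and 713 CPM against 204 and 119 CPM. Lef1 was 131 and 86.8 CPM against 169 and 66.7 CPM. Axin2 and Sfrp1 were higher in senders in both batches, and Lef1 in 1 of 2.

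Split by Lef1 itself, 50 positive cells of the Prrx1 and other classes were set against 91. Axin2 stood at 14.1, 139, 61.3, 33.1 and 93.6 CPM in Lef1 cells and 18.2, 51.1, 36.1, 15.5 and 64.7 CPM in the rest. Lef1 cells were higher in 4 of 5 batches, with a log2 fold change of 0.72 (SE 0.35, unadjusted p = 0.0580 in edgeR). Rspo3 was lower in 4 of 5 batches (-1.80, SE 0.76, unadjusted p = 0.0322 in edgeR), and Sfrp1 was higher in 5 of 5 (0.57, SE 0.22, unadjusted p = 0.0193 in edgeR). Wnt2 had a log2 fold change of 2.35 (SE 0.89, unadjusted p = 0.0197 in edgeR), with higher levels in 3 batches, 49.4 against 68.2 CPM in E9.5 replicate 2 and 0 on both sides in E10 replicate 2. The gate gene Lef1 was the only call, 0.0105% of 9479 genes, and the other 6 genes each had an adjusted p of 0.998. DESeq2 called 6 genes. The summed mesenchymal markers had medians of 1702 and 1724 CPM in the Lef1 cells and the rest.

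**Figure D4:**
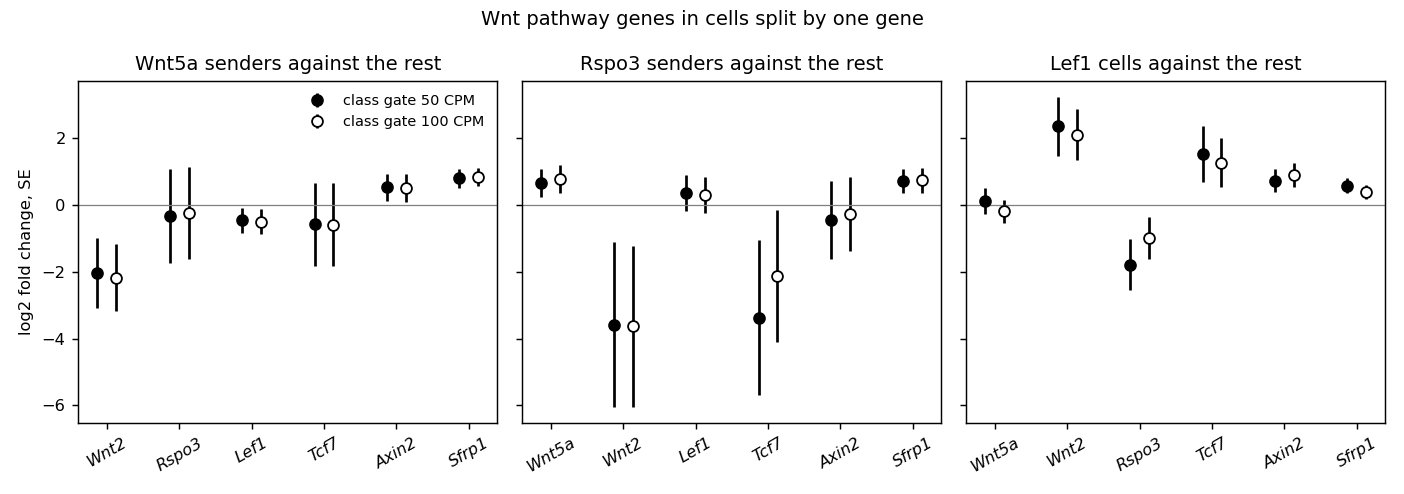
Log2 fold change with its standard error of the 6 genes other than the gate gene, between cells positive and not positive for Wnt5a, Rspo3 or Lef1 among Prrx1 and other cells, at the 50 CPM (filled) and 100 CPM (open) class gates. No value shown passed an adjusted p of 0.05 in edgeR. Axin2 was at 0.53, -0.46 and 0.72 at 50 CPM.

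No difference between E9.5 and E10 was detected for any of the 7 genes. Wnt5a cells made up 19.2% and 10.9% of the E9.5 batches and 52.9%, 0% and 20.6% of the E10 batches, so E10 spanned the E9.5 values. Wnt2 cells made up 3.85% and 13% at E9.5 and 2.30%, 0% and 4.76% at E10, a difference of -6.09 points (two-sided exact permutation p = 0.2, adjusted p = 0.933 over 7 genes), which was -1.49 points without E9.5 replicate 2 and -10.7 without E9.5 replicate 1. The other 6 genes had p of 0.4 to 1.0, and 10 splits of 5 batches cannot give a p below 0.1.

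**Figure D5:**
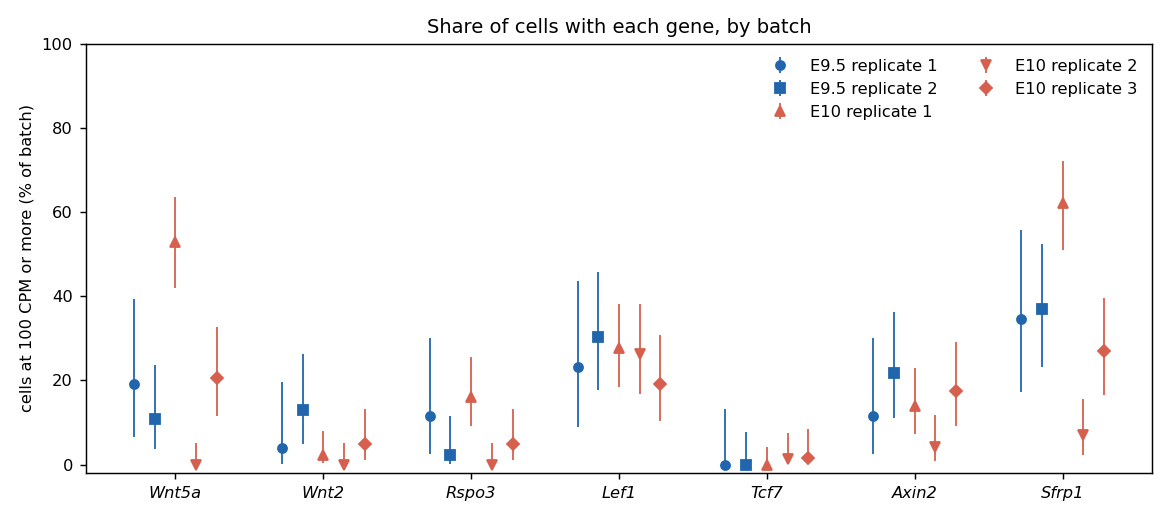
Share of cells at 100 CPM or more for each gene in each batch (percent), with exact 95% binomial intervals, which cover counting error only. Wnt5a ran from 0% in E10 replicate 2 to 52.9% in E10 replicate 1, and Lef1 from 19.0% to 30.4%.

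In sums over all cells, edgeR called 0.0% of 14103 genes between the stages, with 1119 at an unadjusted p under 0.05, and DESeq2 called 86. Such sums cannot tell fewer cells of a type from less RNA per cell. The log2 fold changes of the 7 genes from E9.5 to E10 ran from -1.23 for Wnt2 (SE 1.01) to 0.63 for Wnt5a (SE 1.02). Within Prrx1 cells 0.0% of 11400 genes were called, with 938 at an unadjusted p under 0.05 and 60 in DESeq2. There Lef1 was at -0.64 (SE 0.39, adjusted p = 0.681 in edgeR) and Wnt5a at 0.86 (SE 0.78, adjusted p = 0.830). The difference between Prrx1 and other cells also did not change with stage past the threshold for any of them. Its largest value with an unadjusted p under 0.05 was Wnt5a, 2.10 (SE 0.77, unadjusted p = 0.0130, adjusted p = 0.880 in edgeR, and 1.11 without E9.5 replicate 2 and 3.23 without E9.5 replicate 1), with 0.0% of 11673 genes called, 594 with an unadjusted p under 0.05 and 20 in DESeq2. At the 100 CPM gate 0.0% of 11476 genes were called between stages in Prrx1 cells, with 1155 at an unadjusted p under 0.05 in edgeR. For the change of the class difference with stage 0.0079% of 12658 genes were called at that gate, 0 of the 7, with Wnt5a at 1.51 (SE 0.72, unadjusted p = 0.0482) and Lef1 at -1.13 (SE 0.50, unadjusted p = 0.0356), adjusted p 0.827 and 0.795 in edgeR.

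Across the 294 cells, the 5 genes most like Wnt5a by Pearson correlation of log2(CPM + 10), among 6758 genes with a mean of at least 20 CPM, included Col26a1 (r = 0.64), Col3a1 (0.63) and Meis2 (0.60). Those most like Rspo3 were Foxd1 (0.50), Cxcl12 (0.45), Ebf2 (0.45), Col9a1 (0.44) and Cd248 (0.44). For Lef1 they were Hmga2 (0.54), Gpc3 (0.47), Fscn1 (0.47), Igfbp4 (0.46) and Lix1 (0.46). The 3 sets had no gene in common. Wnt5a itself correlated with Sfrp1 at 0.53, Rspo3 at 0.35, Axin2 at 0.25 and Lef1 at 0.16. These are descriptions: cells of a batch share a library, depth and class mix.

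The gates were thresholds, and 13 cells held exactly 2 blood markers at 50 CPM and 13 exactly 3, while 26 held exactly 2 neural markers and 17 exactly 3. Of Prrx1 and other cells 7 had Prrx1 within 20 CPM of its gate of 100 CPM. In GRCm38.p6 the genes lie on chromosomes 3 (Lef1, 131110297 to 131224357), 6 (Wnt2, 17985474 to 18032772), 8 (Sfrp1, 23411383 to 23449632), 10 (Rspo3, 29453106 to 29535867), 11 (Tcf7, 52246527 to 52283383, and Axin2, 108917828 to 108950783) and 14 (Wnt5a, 28504543 to 28527448).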

How the data were processed

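The samples were 5 batches of hand-picked single cells, 2 of E9.5 and 3 of E10. Per the labels' protocols, a modified STRT-seq protocol was used, in which a cell barcode and a UMI mark each molecule, and 3' ends were counted; the series description calls it Smart-Seq. Per the submitters' processing notes, CASAVA 1.8, TopHat2 2.0.12 and HTSeq were used with the mm10 genome. The authors deposited whole-number UMI counts per gene in 480 columns, 96 a batch, and a batch number in the column name was matched to the sample's label. No strand setting is given in the sources used here, so overlapping genes cannot be told apart. The 95 spike-in rows were dropped. A repeat of a same-numbered well in another batch (under 10% of its UMIs) would have been left out, and 0 wells of that kind reached 30000 UMIs. No doublet caller was run, since cells were picked singly.

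CPM is the usual scaling of a count by the total of its cell or sum. Counts of the cells of a batch, or of a class within it where it had at least 3 cells, were added up and tested with edgeR 4.0.16 under R 4.3.3 (filterByExpr, TMM, quasi-likelihood, Benjamini-Hochberg at 0.05). Batch was a block in class and sender comparisons, because the sums compared within a batch share 1 collection, and a split needed 3 batches. The standard error was the size of the fold change over the square root of F. The fits, except that of the change of the class difference with stage, were run on simulated data. Those data had a fixed spread and no batch effects, so they do not vouch for calls at the spread seen here. DESeq2 1.42.0 was the second tool. Shares carry exact (Clopper-Pearson) 95% intervals and were tested by exact permutation over batches (Python 3.11.15, scipy 1.17.1).

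The 7 genes, the 8 Wnt lists (94 genes), the markers and the gates were chosen with earlier results of these data known. Named genes are the 7, up to 20 list genes per comparison past the threshold with the same sign in every batch, and the 5 genes most like Wnt5a, Rspo3 and Lef1, of which 2 are not reported here; Atf3, Col1a2, Col3a1 and Myc were named after their values were seen. The 100 CPM class gate had been listed as an alternative for the class comparisons only, and was printed beside the main one after E10 replicate 2 had been seen. Its use for stage in Prrx1 cells, for the splits and for the change of the class difference with stage had not been planned. A gate of 200 CPM was also tried afterwards. Other alternatives were RLE scaling, no low-count filter, no block, other gates, at least 5000 UMIs, thinning to 30000 UMIs and leaving out each batch.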

Additional observations from a re-analysis of the deposited data

Results flagged for a closer look

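The share of Axin2 cells among Rspo3 senders minus that among other cells, by stage, was singled out because every E9.5 batch moved one way and every E10 batch the other. The mean over batches was -5.59 percentage points. In E9.5 replicate 1 the difference was 22.8 points, from 1 of 3 senders and 2 of 19 other cells. In E10 replicates 1 and 3 it was -7.58 and -32.0 points, from 1 of 11 and 0 of 3 senders. E9.5 was represented by 1 batch, the counts of senders were at most 11, and the difference between the stages was not tested.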

How the results depend on the processing

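Of the 56 log2 fold changes of the 7 genes in the class, stage and sender comparisons that were followed, 3 passed as reported, all for Lef1 in blood, 9 with no low-count filter, 9 of 54 in DESeq2, 10 of 49 at the 100 CPM class gate and 12 of 23 at 200 CPM. Calls over all genes rose as well. Neural against Prrx1 cells had 118 as reported, 474 in DESeq2, 509 at 100 CPM and 1019 at 200 CPM. Blood against Prrx1 cells had 1405, 2363, 2836 and 2611 in the same order. Blood against other and against neural cells was followed for Lef1 only, and the change of the class difference with stage for Wnt5a only. The 10 therefore leave out Sfrp1, Wnt5a and Axin2 in blood against other cells. Scaling by RLE and wells of 5000 UMIs or more gave 3 each, Prrx1 gates of 50 and 200 CPM gave 3 of 23, and leaving out E9.5 replicate 2 or E10 replicate 3 gave 0.

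Counts of called genes moved by more than 1.5 times as follows. DESeq2 called 86 and 60 genes between stages in all and in Prrx1 cells, 36 between Prrx1 and other cells, 474 between neural and Prrx1 cells, 2363 between blood and Prrx1 cells, and 14, 39 and 6 in the splits by Wnt5a, Rspo3 and Lef1. With no low-count filter the counts were 86 between stages in Prrx1 cells, 17 for Prrx1 against other cells, 382 for neural against Prrx1 cells, 11 for the Wnt5a split and 25 for the Lef1 split. The 100 CPM class gate gave 509 for neural and 2836 for blood against Prrx1 cells. Used on the splits, which had not been planned, it gave 4 for Wnt5a and 34 for Rspo3. The 200 CPM gate, added after the data were seen, gave 1019 for neural and 2611 for blood against Prrx1 cells. Prrx1 at 200 CPM gave 0 for Prrx1 against other cells, a sender gate of 200 CPM gave 1 for the Wnt5a split, one of 50 CPM gave 5 for the Rspo3 split, and RLE scaling gave 31 there.

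Sums were paired by batch, since those of 1 batch share a collection. With no replicate block, 0 genes were called for Prrx1 against other cells and 1 each in the splits by Wnt5a and Rspo3. Without the block Lef1 in blood lost its 3 calls (-2.13, -1.27 and -1.09 against Prrx1, other and neural cells), and Sfrp1 (-3.70) and Wnt5a (-3.64) against Prrx1 cells passed.

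Directions turned for values that had not passed. At a threshold of 50 CPM the differences in share between stages were -1.63 points for Wnt5a, -0.942 for Rspo3, -0.0238 for Tcf7 and 0.487 for Axin2, and Lef1 in Rspo3 senders was -14.8. Thinned to 30000 UMIs, Rspo3 was -4.67 between stages and, in Rspo3 senders, Lef1 was -0.0694 and Axin2 6.37. With 5000 UMIs Rspo3 was -0.433. Log2 fold changes turned for Rspo3 between stages (-0.045 with RLE and -0.047 in DESeq2). They turned for Axin2 between stages in Prrx1 cells at the 100 CPM class gate (0.055). In the Wnt5a split, Lef1 turned at a sender gate of 200 CPM (0.19). Rspo3 turned there with no replicate block (0.55) and at a sender gate of 50 CPM (0.96). Tcf7 turned there with no replicate block (0.010) and at a sender gate of 200 CPM (0.56). In the Rspo3 split, Lef1 turned at a sender gate of 50 CPM (-0.33). In the Lef1 split, Wnt5a turned with no replicate block (-0.048) and at the 100 CPM class gate (-0.20). The cause was not tested.

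Leaving out each batch in turn, called genes ranged from 0 to 7 between stages in Prrx1 cells, 0 to 2 for Prrx1 against other cells, 46 to 208 for neural against Prrx1 cells, 218 to 2151 for blood against Prrx1 cells and 1 to 4 in the Wnt5a split. The neural count was 59 and the blood count 351 without E9.5 replicate 2. Leaving out E10 replicate 3 gave 46 neural and 218 blood calls, and leaving out E10 replicate 2 gave 208 neural and 2151 blood calls. The stage count in Prrx1 cells was 6 and 7 without E9.5 replicates 1 and 2. Stage differences in share ranged from -4.73 to 21.7 points for Wnt5a, -4.59 to 4.78 for Rspo3, -10.7 to -1.49 for Wnt2, -6.09 to 1.26 for Lef1, -9.93 to 0.268 for Axin2 and -18.8 to 8.74 for Sfrp1, and that of Axin2 in Rspo3 senders from -19.8 to 7.62. Stage log2 fold changes over all cells ranged from -0.34 to 1.03 for Axin2, -0.45 to 0.061 for Lef1, -1.22 to 2.23 for Rspo3, -1.18 to 0.33 for Sfrp1, -0.56 to 0.43 for Tcf7 and -0.74 to 1.75 for Wnt5a, and in Prrx1 cells from -1.11 to 1.32 for Axin2, -1.10 to 0.022 for Lef1, -0.56 to 1.33 for Rspo3, -0.81 to 0.31 for Sfrp1, -1.04 to 0.30 for Tcf7 and -2.37 to 0.085 for Wnt2. Rspo3 in the Wnt5a split ranged from -2.40 to 1.22 and Wnt5a in the Lef1 split from -0.23 to 0.39.

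The Rspo3 split rests on 3 batches and could not be fitted without any of them, and the Wnt2 split, with 2 batches, was not run. Depth limits the rarer genes: Tcf7 and Wnt2 reached 100 CPM in 2 and 12 cells.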
